A study of Arabidopsis thaliana with 12 samples.

Results

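RNA of seedlings in 400 µM Rose Bengal was compared with RNA of seedlings in 100 µM Rose Bengal, the highest doses of a series of 4, to ask where the response of the transcriptome levels off. The comparison took the 6 libraries of these doses out of 12, 3 at 400 µM and 3 at 100 µM, and all 13307 genes of the deposited count table. All libraries were made from entire seedlings of the Arabidopsis thaliana wild type Col-0 at an age of 2 weeks, raised on sugar-containing agar, rested in water and then held for 2 h in light of 30 µE with the dye. The other libraries came from seedlings at 10 µM and at 0 µM, which had the same light without dye, and they entered the fit and are given as context. No mutant, transgene or second agent was used, and each library mixed shoots and roots.

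Rose Bengal is a dye that passes light energy to oxygen and so makes singlet oxygen, a short-lived oxidant that reacts with lipids, proteins and nucleic acids close to where it arises. Plants answer oxidants and damaged proteins with chaperones, among them heat shock proteins that bind unfolded proteins, under the control of heat shock factors. They also raise transcription factors of the ERF, WRKY and C2H2 zinc finger families, and glutathione transferases, which couple toxic compounds to glutathione. RNA of growing tissue, such as that for cell wall proteins and water channels, is often lowered under stress.

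Levels are given in CPM, the read count of a gene scaled to the size of its library. A change is given on the log2 scale as 400 minus 100 µM, with its standard error (SE), so that a positive value means a higher level at 400 µM. A gene was called, and is said to have risen or fallen, when edgeR's quasi-likelihood test gave a Benjamini-Hochberg adjusted p under 0.05 over all 13307 genes. Library totals were 2046475, 2002066 and 2422583 reads at 400 µM, against 2799365, 2091601 and 2313273 reads at 100 µM, and 12474 to 12957 genes had reads in each of the 6. The paper's methods for RNA extraction speak of biological replicates of several whole seedlings. Neither the labels nor the methods state that the 3 libraries of a dose were grown or treated apart. The p-values thus take account of no more than the scatter among these libraries, which may be technical.

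RB 100 µM replicate 1 stood apart from the other libraries of its dose in a measure that uses no difference between doses. In the deviations from the group means of 6904 genes, the first component held 33.4% of the variance, with scores of 0.654, -0.383 and -0.271 for replicates 1, 2 and 3 at 100 µM. The scores of the other 9 libraries ran from -0.235 for RB 400 µM replicate 1 to 0.363 for RB 10 µM replicate 1, with 0.282 for RB 400 µM replicate 2. ACT2, an actin often used as a reference, had 23.5, 103 and 30.5 CPM at 400 µM, against 133, 13.5 and 32.9 CPM at 100 µM. UBQ10, a polyubiquitin gene, had 6480, 6277 and 6173 CPM at 400 µM, against 6994, 7484 and 8833 CPM at 100 µM. UBQ10 was thus lower in each library at 400 µM without passing edgeR's test (log2 fold change -0.30, SE 0.13, adjusted p = 0.573), and the libraries of ACT2 overlapped. Leading results are also given without RB 100 µM replicate 1.

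Few genes passed the test between 400 and 100 µM. Of 13307 genes, 2 rose and 4 fell, which is 0.0451% (0.015% higher and 0.0301% lower), and 1050 had an unadjusted p under 0.05. The same fit called 354 genes higher (2.66%) and 143 lower (1.07%) at 10 against 0 µM, and 396 higher (2.98%) and 199 lower (1.5%) at 100 against 10 µM. The dose rose 10-fold between 10 and 100 µM but 4-fold between 100 and 400 µM, so these counts are of unlike steps. Against 0 µM, 974 genes were called higher and 561 lower at 100 µM. At 400 µM, 1212 were called higher and 856 lower against the same untreated libraries. The median log2 fold change of all genes was 0, with 6633 values above 0 and 6644 below, and the quartiles were -0.26 and 0.27.

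The intervals say how much difference the data allow. For the 6747 genes that averaged 10 CPM or more over the 6 libraries, the 95% interval of the log2 fold change lay within 2-fold either way for 5872 (87%), and for 48.2% of all genes. It lay within 1.5-fold for 2936 (43.5%). Its median half-width was 0.43 for these genes and 1.4 for genes under 10 CPM, so that the intervals of low genes were mostly wider than 2-fold. The 3 libraries at 400 µM were all above the 3 at 100 µM for 793 genes (5.96%) and all below them for 850 (6.39%). Among genes of at least 10 CPM the shares were 6.08% and 7.83%. These shares are the background for the counts of gene groups below.

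**Figure D1:**
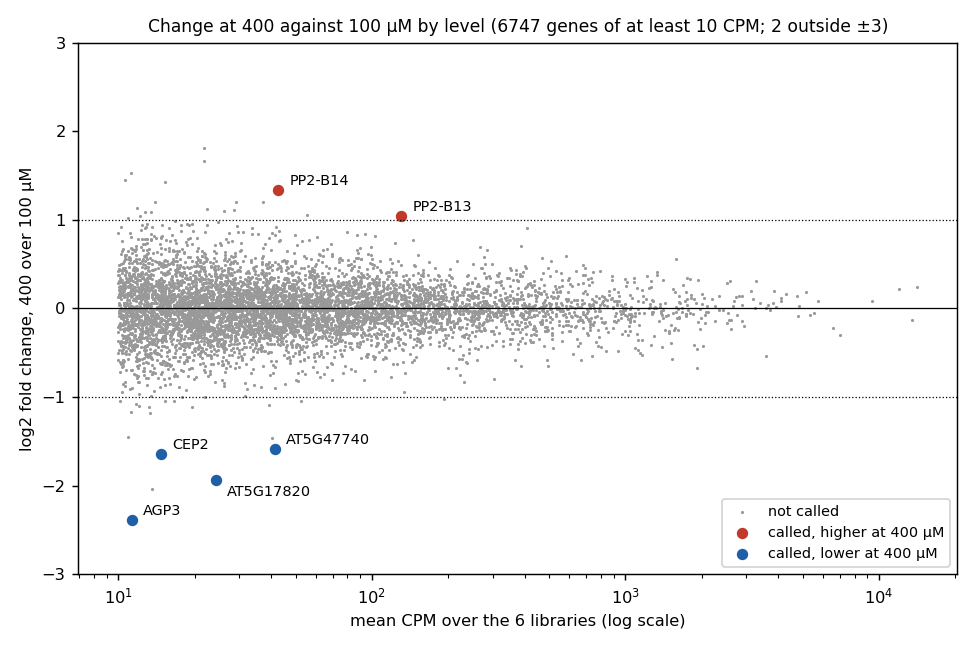
Log2 fold change of 400 over 100 µM against mean CPM over the 6 libraries (log scale), for 6747 genes of at least 10 CPM, of which 2 lie outside the axis. The 2 called rises (red) and 4 called falls (blue) lie beyond the dotted lines at 2-fold, and most other genes lie between the lines.

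The 2 genes that rose, PP2-B13 and PP2-B14, are neighbours on chromosome 1 and encode F-box proteins with a phloem protein 2 domain, which resembles plant lectins. F-box proteins pick targets for ubiquitin ligases. PP2-B13 (AT1G56240, TAIR10.1 chr1:21056099-21057577, minus strand) had 197, 144 and 187 CPM at 400 µM, against 70.5, 87.6 and 99.3 CPM at 100 µM. PP2-B14 (AT1G56250, chr1:21061522-21063047, minus strand) had 68.5, 58.1 and 56.7 CPM at 400 µM, against 16.1, 30.5 and 26.7 CPM at 100 µM. For both genes the lowest library at 400 µM lay above the highest at 100 µM. PP2-B14 rose by 1.34 (SE 0.22, adjusted p = 0.0278) and PP2-B13 by 1.04 (SE 0.18, adjusted p = 0.0346).

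Both genes were called higher at each step of the series, with adjusted p under 0.05 also for 10 against 0 µM and for 100 against 10 µM. Mean CPM of PP2-B13 was 3.5, 16.2, 85.8 and 176 at 0, 10, 100 and 400 µM, and that of PP2-B14 was 0.846, 5.85, 24.5 and 61.1. The 2 other members of the family measured, PP2-B10 and PP2-B11, did not pass the test, with log2 fold changes of 0.17 (95% interval -0.28 to 0.62) and 0.11 (-0.77 to 0.99). The last 300 bases of the PP2-B13 and PP2-B14 transcripts were 48.4% identical in RefSeq, and their longest identical stretch was 74 bases, against 75 cycles of a read. Reads were trimmed before mapping, so a trimmed read could lie within this stretch. Whether reads of the 2 genes were shared was not tested, so their counts are uncertain to that degree.

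Of the 4 genes that fell, AT5G17820 and AGP3 encode wall or cell surface proteins. AT5G17820 (chr5:5887871-5890260, minus strand) is a peroxidase of the class that plants secrete to the cell wall. It had 8.36, 11 and 10.6 CPM at 400 µM, against 34.0, 39.1 and 42.5 CPM at 100 µM, and fell by 1.93 (SE 0.27, adjusted p = 0.0148). AGP3 (AT4G40090, chr4:18580827-18581696, minus strand), an arabinogalactan protein, had 4.18, 3.14 and 3.39 CPM at 400 µM, against 14, 22.0 and 21.5 CPM at 100 µM, and fell by 2.39 (SE 0.37, adjusted p = 0.0232). The doses did not overlap for either gene. In whole seedlings, fewer cells of a type and less RNA per cell cannot be told apart.

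CEP2 (AT3G48340, chr3:17897506-17899351, plus strand) encodes a cysteine proteinase. It had 6.27, 6.29 and 8.47 CPM at 400 µM, against 17.2, 25 and 25.3 CPM at 100 µM, and fell by 1.65 (SE 0.27, adjusted p = 0.0232). AT5G47740 (chr5:19338511-19339775, plus strand), annotated as adenine nucleotide alpha hydrolases-like, had 17.2, 22.0 and 22.4 CPM at 400 µM, against 50.4, 61.6 and 74.9 CPM at 100 µM. It fell by 1.59 (SE 0.25, adjusted p = 0.0232).

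The 4 falls differed in their course over the lower doses. Mean CPM of AT5G17820 was 145, 56.2, 38.5 and 9.98 at 0, 10, 100 and 400 µM, and that of AGP3 was 99.5, 23.8, 19.2 and 3.57. CEP2 went through 43.6, 25.5, 22.5 and 7.01 CPM. AT5G47740 stood at 58.6, 48.1 and 62.3 CPM at 0, 10 and 100 µM, where its libraries overlapped, and at 20.6 CPM at 400 µM.

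**Figure D2:**
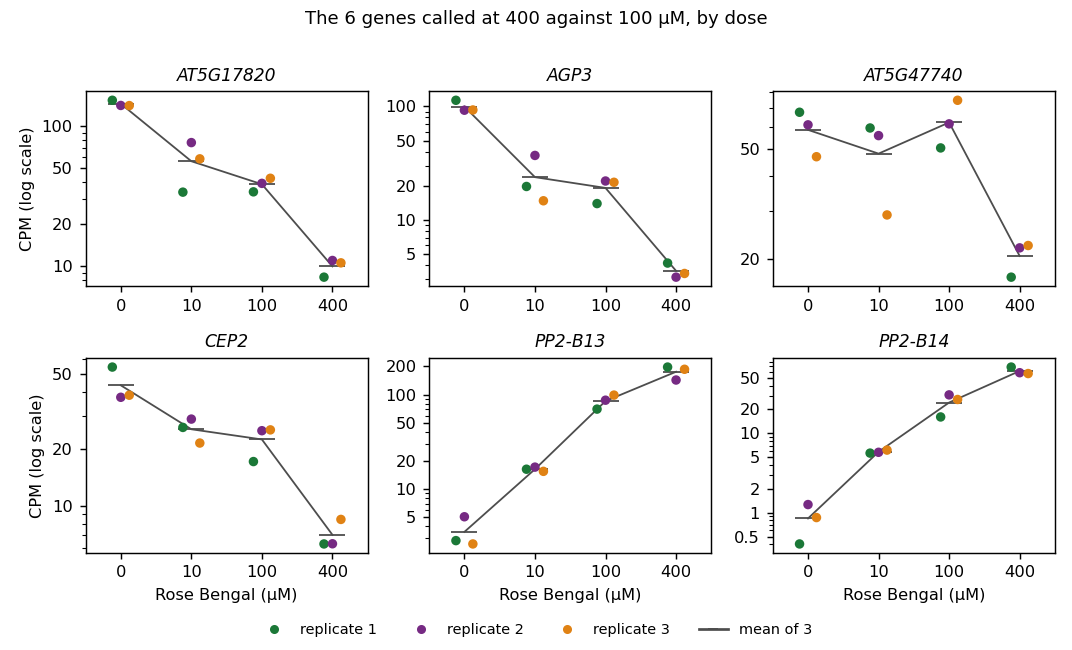
CPM (log scale) of the 6 called genes in each library at 0, 10, 100 and 400 µM Rose Bengal, with a bar at the mean of 3 and a line joining the means. PP2-B13 and PP2-B14 climb at every dose, and AT5G47740 leaves its range only at 400 µM, where it averages 20.6 CPM.

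The 6 calls depended on single libraries. Without RB 100 µM replicate 1, all 6 were kept among 77 genes higher and 39 lower, whereas no gene was called when replicate 2 or 3 at 100 µM, or replicate 1 or 3 at 400 µM, was left out. Leaving out replicate 2 at 400 µM kept PP2-B13 and AT5G17820. The adjusted p ran from 0.003 to 0.152 for AT5G17820 and from 0.003 to 0.177 for AGP3 over these fits, while the log2 fold change ran from -2.02 to -1.79 for AT5G17820 and from -2.59 to -2.26 for AGP3.

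Just outside the threshold lay 5 genes at an adjusted p of 0.0501. GAD4, a glutamate decarboxylase, which makes GABA from glutamate, had 76.3, 63.9 and 83.4 CPM at 400 µM, against 29.3, 33.1 and 45.8 CPM at 100 µM (log2 fold change 1.05, SE 0.19). GulLO2, of the lactone oxidase family that includes enzymes of ascorbate synthesis, had 26.7, 24.6 and 24.1 CPM at 400 µM, against 49.0, 54.6 and 56.8 CPM at 100 µM (-1.09, SE 0.20). The peroxidase gene AT5G64100 had 145, 107 and 129 CPM at 400 µM, against 229, 262 and 285 CPM at 100 µM (-1.02, SE 0.19). None of these 3 overlapped between the doses.

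The extensin-like gene AT3G54580, whose product belongs to a family of structural wall proteins, had a log2 fold change of -1.52 (SE 0.28). It shares a stretch of 83 identical bases with HRGP1, longer than a read, so their counts are uncertain. AtCDC48B, an ATPase of the family that extracts proteins from complexes for degradation, had -0.73 (SE 0.14). GAD4, GulLO2, AT5G64100 and AtCDC48B were called by DESeq2 and by edgeR without RB 100 µM replicate 1. None of these was called by edgeR when any other single library of the 6 was left out. DIC2, a mitochondrial dicarboxylate carrier, and AT2G15880, a leucine-rich repeat protein, lay further out, with log2 fold changes of 0.66 (SE 0.14) and 0.70 (SE 0.14), both at an adjusted p of 0.0919.

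The study follows singlet oxygen with marker genes, so their counts are no independent evidence of direction. None of the 4 singlet oxygen markers was called. BAP1, a membrane protein that inhibits cell death, had 265, 258 and 265 CPM at 400 µM, against 188, 242 and 268 CPM at 100 µM. Its mean was 69.7, 126 and 233 CPM at 0, 10 and 100 µM, and the levels at 400 and 100 µM overlapped (log2 fold change 0.18, 95% interval -0.15 to 0.50). AT5G64870, a nodulin-like protein with an SPFH domain, had 34.5, 44.5 and 38.9 CPM at 400 µM, against 24.0, 31.5 and 26.7 CPM at 100 µM (0.53, SE 0.32, adjusted p = 0.726).

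AT5G13200, a GRAM domain protein, had 72.1, 70.2 and 66.5 CPM at 400 µM, against 70.5, 78.6 and 72.1 CPM at 100 µM. Its 95% interval, -0.45 to 0.29, lay within 2-fold. AT3G01830, a calmodulin-related protein, stood at 6.27, 7.86 and 4.66 CPM at 400 µM, against 4.29, 3.51 and 3.82 CPM at 100 µM, with an interval too wide to place it (-0.68 to 2.03). None of the 3 superoxide markers measured was called. FER1, a ferritin, which stores iron, had a log2 fold change of -0.25 (95% interval -0.54 to 0.03). MYBL2, a MYB repressor, and AT4G21870, a heat shock protein17-like gene, averaged under 4 CPM at both doses, with intervals of -0.74 to 2.41 for MYBL2 and -1.17 to 1.01 for AT4G21870. The median of these 3 was -0.08, and 0.49 without RB 100 µM replicate 1.

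Cytosolic small heat shock proteins, which hold unfolded proteins until other chaperones refold them, were mostly lower at 400 µM, though none was called. Of 9 measured, 6 had all libraries at 400 µM below those at 100 µM and 1 had them above, and the median log2 fold change was -0.46. AT1G59860 had 234, 218 and 212 CPM at 400 µM, against 372, 414 and 372 CPM at 100 µM. Its log2 fold change was -0.80 (SE 0.17, adjusted p = 0.0919), and it was called in a fit of only the 6 libraries compared (adjusted p = 0.0308), with DESeq2 and without RB 100 µM replicate 1. It was not called when any other single library of the 6 was left out. AT1G07400 had 1631, 1346 and 1433 CPM at 400 µM, against 2105, 2620 and 2313 CPM at 100 µM (-0.67, SE 0.16, adjusted p = 0.251).

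HSP17.4 had 1664, 1609 and 1558 CPM at 400 µM, against 1865, 2404 and 2387 CPM at 100 µM (-0.46, SE 0.15). AT1G53540 had 973, 927 and 924 CPM at 400 µM, against 1148, 1511 and 1238 CPM at 100 µM (-0.46, SE 0.16). HSP17.6II and HSP17.6A stood lower as well, with log2 fold changes of -0.52 (SE 0.19) and -0.42 (SE 0.16). At both doses all of these lay far above the untreated level, where HSP17.4 averaged 70.5 CPM, AT1G53540 21.8 CPM and HSP17.6A 47.2 CPM. HSP18.2 went the other way and had 143, 169 and 143 CPM at 400 µM, against 94.8, 138 and 135 CPM at 100 µM (0.31, SE 0.23).

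Several large chaperones were lower at 400 µM as well. Of the 13 HSP100, HSP90 and HSP70 genes, 5 had all libraries at 400 µM below those at 100 µM and 0 above, the median was -0.24, and 10 had a 95% interval within 2-fold. HSP101, an ATPase that pulls proteins out of aggregates, had 984, 907 and 925 CPM at 400 µM, against 1297, 1371 and 1335 CPM at 100 µM (-0.51, SE 0.15, adjusted p = 0.358). HSP70 (AT3G12580) had 3056, 2702 and 3051 CPM at 400 µM, against 4053, 4566 and 4145 CPM at 100 µM (-0.53, SE 0.14, adjusted p = 0.284). Hsp81.4, an HSP90, was far lower in level, at 9.41, 6.29 and 12.3 CPM at 400 µM, against 18.6, 15.5 and 13.4 CPM at 100 µM. HSP90.1, the stress-induced HSP90, overlapped between the doses (-0.16, 95% interval -0.53 to 0.22), as did the constitutive HSC70-1 (-0.22, -0.48 to 0.04).

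Organelle small heat shock proteins were split. AT5G51440, a small heat shock protein, had 202, 185 and 176 CPM at 400 µM, against 302, 271 and 239 CPM at 100 µM. HSP23.6-MITO, of mitochondria, had 250, 264 and 214 CPM at 400 µM, against 343, 341 and 301 CPM at 100 µM. The doses did not overlap for either gene (log2 fold changes -0.53 and -0.44), whereas HSP21, of chloroplasts, overlapped at 0.65 (95% interval -0.26 to 1.55). Among 6 co-chaperones none stood apart, with a median of -0.20, and BAG6, Hop3, ROF1 and MBF1C had log2 fold changes of -0.43, -0.30, -0.23 and -0.15. Hop3, which links HSP70 to HSP90, had 217, 214 and 218 CPM at 400 µM, against 216, 330 and 257 CPM at 100 µM.

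Of 15 heat shock factors, 2 stood above and 1 below, and the median was -0.02. HSFA2, which sustains the heat shock response, had 116, 113 and 123 CPM at 400 µM, against 119, 135 and 115 CPM at 100 µM, while its untreated mean was 2.43 CPM. HSF4 (AT4G36990) had 755, 734 and 717 CPM at 400 µM, against 638, 738 and 768 CPM at 100 µM. Both had intervals within 2-fold, of -0.52 to 0.38 for HSFA2 and -0.23 to 0.31 for HSF4. HSFB2A stood lower at 400 µM in each library, at 89.9, 82.8 and 92.3 CPM, against 104, 105 and 120 CPM at 100 µM (-0.31, SE 0.17).

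**Figure D3:**
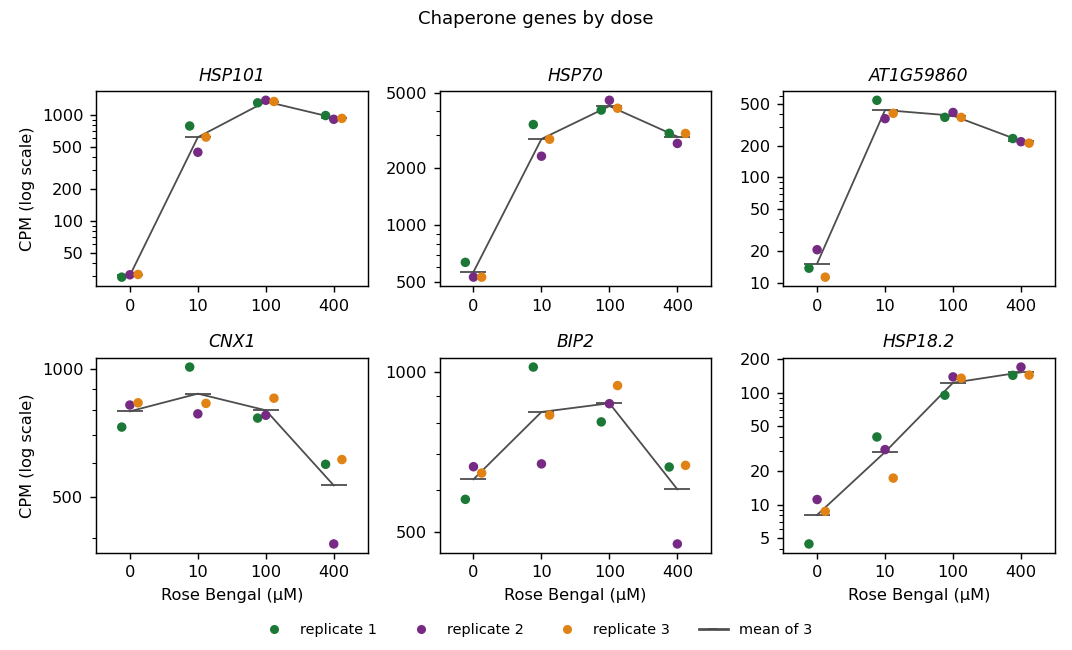
CPM (log scale) of 6 chaperone genes in each library at 0, 10, 100 and 400 µM Rose Bengal, with a bar at the mean of 3. HSP101, HSP70 and AT1G59860 lie lower at 400 than at 100 µM in every library while far above 0 µM, CNX1 and BIP2 average 532 and 601 CPM at 400 µM, under their means of 800 and 873 CPM at 100 µM and of 796 and 628 CPM at 0 µM, and HSP18.2 lies higher at 400 than at 100 µM.

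Promoters of 2 cytosolic small heat shock genes, HSP17.4 and AT1G53540, are shown because they hold a heat shock element, the site that heat shock factors bind. The element was searched as TTCNNGAANNTTC and GAANNTTCNNGAA on both strands in the 250 bases before the RefSeq start, and its letters are in capitals. It was found in 2 of the 9 cytosolic small heat shock genes, in 0 of the 13 large chaperone genes and in 0.386% of 27443 protein-coding promoters. AT1G59860 and AT1G07400 held no match, though their log2 fold changes, -0.80 and -0.67, were further from 0 than the -0.46 of both genes shown. HSP17.4 (chr3:16984868-16985117, minus strand) held 2 matches, the nearer 5 bases from the start, and AT1G53540 (chr1:19980049-19980298, plus strand) held 1, 40 bases from the start.
HSP17.4: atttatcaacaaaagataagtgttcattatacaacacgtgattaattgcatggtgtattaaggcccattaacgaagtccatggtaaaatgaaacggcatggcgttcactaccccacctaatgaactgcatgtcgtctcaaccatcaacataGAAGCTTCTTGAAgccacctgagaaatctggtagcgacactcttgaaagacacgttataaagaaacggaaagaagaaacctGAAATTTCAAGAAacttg
AT1G53540: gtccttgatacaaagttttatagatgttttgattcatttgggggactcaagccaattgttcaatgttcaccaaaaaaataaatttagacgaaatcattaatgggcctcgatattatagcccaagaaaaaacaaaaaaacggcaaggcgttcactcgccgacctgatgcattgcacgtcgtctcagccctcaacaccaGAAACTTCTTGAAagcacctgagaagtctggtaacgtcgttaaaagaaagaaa

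The step between 100 and 400 µM was also tested against the step between 10 and 100 µM, as the upper minus the lower. The upper step spans a 4-fold and the lower a 10-fold dose ratio, and both steps share the libraries at 100 µM. A level that climbs evenly with the logarithm of the dose would thus also give a negative difference. For a gene lowered by the dye, levelling off would give a positive one. A call says that the steps differ and does not by itself show levelling off. In this contrast 0 genes were higher and 8 were lower (0.0601%), with 1358 genes at an unadjusted p under 0.05. DESeq2 called 10 higher and 68 lower. HSP101 had a difference of -1.63 (SE 0.258, adjusted p = 0.0242), since it gained 1.12 between 10 and 100 µM and had -0.51 between 100 and 400 µM. AT1G53540 and HSP17.4 had differences of -1.80 (SE 0.274) and -1.38 (SE 0.25), with lower steps of 1.33 and 0.92.

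Hsp70b, a heat-induced HSP70, had 244, 255 and 186 CPM at 400 µM, against 312, 256 and 282 CPM at 100 µM, and its steps differed by -1.83 (SE 0.323, adjusted p = 0.0397). MSRB9, a methionine sulfoxide reductase, which repairs oxidised methionine, had 976, 1246 and 1107 CPM at 400 µM, against 952, 1071 and 1442 CPM at 100 µM. RRTF1, an ERF that responds to redox changes, had 62.7, 62.9 and 61.4 CPM at 400 µM, against 40.4, 49.1 and 64.4 CPM at 100 µM and a mean of 6.91 CPM at 10 µM. The differences were -1.5 (SE 0.254) for MSRB9 and -2.52 (SE 0.416) for RRTF1, and both genes overlapped between 400 and 100 µM.

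The last 2 were AT1G53625, of an uncharacterised protein, and AT5G10710, annotated as centromere protein O. AT1G53625 had 153, 182 and 183 CPM at 400 µM, against 145, 210 and 213 CPM at 100 µM, with a difference of -1.74 (SE 0.279). AT5G10710 had 11.5, 15.2 and 14.4 CPM at 400 µM, against 8.59, 8.01 and 10.0 CPM at 100 µM, and no read at 10 µM, so its fitted lower step of 7.44 has no firm size. All 8 calls were kept without RB 100 µM replicate 1, where 388 genes were higher and 190 lower in this contrast. Each was lost without any other library of the 6, with an adjusted p of up to 0.139 for HSP101 and up to 0.283 for HSP17.4.

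Genes of the unfolded protein response, which serve protein folding in the endoplasmic reticulum, stood lower at 400 µM. Of 13 measured, 7 had all libraries at 400 µM below those at 100 µM and 1 above, none was called, and the median was -0.34. CNX1, calnexin, a lectin chaperone, had 597, 388 and 612 CPM at 400 µM, against 767, 779 and 854 CPM at 100 µM (-0.59, SE 0.16, adjusted p = 0.284). BIP2, an HSP70 of the endoplasmic reticulum, had 662, 475 and 667 CPM at 400 µM, against 805, 871 and 942 CPM at 100 µM (-0.54, SE 0.16, adjusted p = 0.342). RB 400 µM replicate 2 was the lowest library for both genes.

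BIP1 had 892, 597 and 844 CPM at 400 µM, against 1010, 1063 and 1189 CPM at 100 µM, and RB 400 µM replicate 2 was again the lowest. BIP1 and BIP2 are close copies, so reads between them may be split uncertainly, which was not tested. ATERDJ3A, a DnaJ protein of the same compartment, had 20.9, 19.9 and 20.3 CPM at 400 µM, against 35.4, 25.5 and 32.9 CPM at 100 µM (-0.62, SE 0.21). CRT1b, calreticulin, and SHD, the HSP90 of the compartment, had log2 fold changes of -0.41 (SE 0.14) and -0.34 (SE 0.15). BZIP60, a transcription factor of this response, overlapped at 5.23, 8.90 and 6.35 CPM at 400 µM, against 4.29, 11.5 and 5.73 CPM at 100 µM. CNX1 and BIP1 had untreated means of 796 and 975 CPM, which lay above their means at 400 µM, 532 and 778 CPM.

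Transcription factors raised at lower doses mostly showed no further step that the test could call. Of the 11 ERF activators of group IX, which drive defence genes, 10 had a 95% interval within 2-fold, none stood apart, and the median was 0.06. ERF6 had 506, 502 and 441 CPM at 400 µM, against 466, 490 and 557 CPM at 100 µM and a mean of 56.9 CPM at 0 µM. ERF13 had 175, 186 and 160 CPM at 400 µM, against 108, 120 and 166 CPM at 100 µM (0.40, 95% interval 0.00 to 0.81). ERF104 and AT5G51190 overlapped at 0.20 (-0.10 to 0.50) and 0.35 (-0.10 to 0.80), and TDR1 at 0.53 (-0.02 to 1.08).

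The abundant C2H2 zinc finger factors differed among themselves. STZ had 1534, 1372 and 1489 CPM at 400 µM, against 1175, 1436 and 1589 CPM at 100 µM, and RHL41 had 1032, 1186 and 1083 CPM at 400 µM, against 791, 1080 and 1104 CPM at 100 µM. Their intervals were -0.20 to 0.34 for STZ and -0.25 to 0.56 for RHL41. ZAT6 had 1017, 840 and 897 CPM at 400 µM, against 989, 1243 and 1163 CPM at 100 µM, and its interval, -0.58 to -0.03, lay below 0, though its libraries overlapped and it was not called. Of the 10 members, 1 stood above and 1 below, with a median of -0.12.

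WRKY factors, which bind W-box sites in defence genes, leaned upward without a call. Of 18, 3 had all libraries at 400 µM above those at 100 µM and 0 below, with a median of 0.35. WRKY33 had 615, 539 and 654 CPM at 400 µM, against 454, 325 and 470 CPM at 100 µM (0.53, SE 0.18, adjusted p = 0.431). WRKY40 had 505, 422 and 480 CPM at 400 µM, against 310, 297 and 402 CPM at 100 µM (0.48, SE 0.18, adjusted p = 0.492). WRKY55 had 11.5, 14.1 and 23.3 CPM at 400 µM, against 7.87, 5.51 and 10.5 CPM at 100 µM, while WRKY48 overlapped (0.90, 95% interval 0.20 to 1.61).

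Glutathione transferases leaned the same way. Of 21, 18 had a positive log2 fold change, 4 stood above and 0 below, none was called, and the median was 0.38. GSTU24 had 13.1, 12.6 and 14.8 CPM at 400 µM, against 11.1, 3.51 and 6.2 CPM at 100 µM (0.92, SE 0.45), and GSTU11 had 5.23, 8.38 and 5.08 CPM at 400 µM, against 2.86, 1.5 and 3.34 CPM at 100 µM (1.24, SE 0.56). GSTU20 and GSTF6 overlapped, at 0.53 (95% interval 0.08 to 0.97) and 0.54 (0.01 to 1.08). GSTF8, the most abundant of those named, had 5616, 5098 and 5629 CPM at 400 µM, against 6131, 5035 and 5781 CPM at 100 µM, with an interval of -0.34 to 0.24.

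Among 11 genes of xenobiotic and carbonyl detoxification, 2 stood above and 1 below, with a median of 0.27, and of 0.00 without RB 400 µM replicate 3. CYP81D11 and CYP81D8, cytochromes P450 of the same subfamily, went opposite ways. CYP81D11 had 30.3, 43.0 and 36.4 CPM at 400 µM, against 64.0, 55.6 and 72.1 CPM at 100 µM (-0.81, SE 0.20, adjusted p = 0.261). CYP81D8 had 63.2, 62.9 and 105 CPM at 400 µM, against 51.2, 43.6 and 59.2 CPM at 100 µM (0.59, SE 0.27, adjusted p = 0.602). ABCG40, a membrane transporter, stood above at 0.74 (SE 0.29).

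In mitochondrial stress genes 1 of 9 stood above, DIC2, with 377, 338 and 331 CPM at 400 µM, against 204, 230 and 230 CPM at 100 µM. Mean CPM of DIC2 was 15.1, 95.1, 221 and 349 at 0, 10, 100 and 400 µM. It was called by DESeq2 (adjusted p = 0.00375) and not by edgeR. Of 29 mitochondrion-encoded genes, 27 had a positive log2 fold change and 4 stood above, with a median of 0.46 and no call. Polyadenylated organelle RNA is a small and special part of organelle RNA, and of these ATMG00660 had 126, 120 and 104 CPM at 400 µM, against 79.4, 86.1 and 89.2 CPM at 100 µM, while ATMG00670 had 23.5, 39.3 and 26.2 CPM at 400 µM, against 17.5, 12.0 and 16.2 CPM at 100 µM.

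Genes of jasmonate synthesis, which makes a wound hormone from plastid lipids, all had a 95% interval within 2-fold (14 of 14), with 3 above, 1 below and a median of 0.00. LOX4, a lipoxygenase of the first step, had 88.3, 130 and 96.9 CPM at 400 µM, against 65.8, 64.1 and 82.6 CPM at 100 µM (0.57, SE 0.20, adjusted p = 0.431). LOX3 had 49.1, 66.0 and 61.0 CPM at 400 µM, against 35.1, 42.1 and 46.3 CPM at 100 µM (0.52, SE 0.19), and AOC3, an allene oxide cyclase, stood above at 0.38 (SE 0.16). Of 10 JAZ repressors, the brakes on jasmonate signalling, 2 stood above, JAZ7 and JAZ3, at levels of 10.2 CPM or less in every library of both doses. CYP71A13, an enzyme of camalexin synthesis, had 20.4, 37.2 and 41.1 CPM at 400 µM, against 8.23, 6.51 and 16.7 CPM at 100 µM (1.66, SE 0.44, adjusted p = 0.284).

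Root hair genes had the lowest median of the lists, but mostly at levels of a few reads. Of 11 measured, 4 stood below and 0 above, and 1, AGP3, was called. A negative log2 fold change was fitted for 8 and a positive one for 2, the highest at 1.36. PRP3, a proline-rich wall protein of root hairs, had 0, 2.1 and 2.12 CPM at 400 µM, against 7.15, 8.51 and 7.16 CPM at 100 µM. It had 9 reads at 400 µM, against 52 at 100 µM, a ratio of 0.193 (95% counting interval 0.0835 to 0.395), and an adjusted p of 0.0749 in edgeR's test. The median log2 fold change was -2.34 as fitted, and -1.64 over 8 genes when a gene with no read at 400 µM was set at a bound of 3 reads and 3 genes with no more than 3 reads at either dose were left out. Without RB 100 µM replicate 2 the fitted median was -1.09.

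The expansins EXPA18 and EXPA7, which loosen the wall of growing root hairs, were close to the end of detection. EXPA18 had 1 read at 400 µM, against 18 at 100 µM (ratio 0.0619, 95% counting interval 0.00149 to 0.392), and EXPA7 had 1 against 12 (0.0928, 0.00217 to 0.627). LRL3, a bHLH factor of root hair growth, is not in the root hair list. It had 3 reads at 400 µM, against 22 at 100 µM (0.152, 0.0291 to 0.505), and its libraries overlapped. These intervals cover counting error only, since reads without molecular identifiers are not independent molecules. In untreated seedlings EXPA18, EXPA7 and LRL3 had 177, 135 and 72 reads.

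The promoters of EXPA18, EXPA7 and PRP3 are shown because these genes had few reads at 400 µM, stood below in every library and hold the root hair element (RHE), a site known from root hair genes and here in capitals. It was found in the 250 bases before the start of 5 of 11 root hair genes and of 0.754% of all protein-coding genes, on either strand. Since the element is known from such genes, its share in their list is no independent evidence. The windows were chr1:23331313-23331562 for EXPA18, chr1:4276255-4276504 for EXPA7 and chr3:23182472-23182721 for PRP3, all on the plus strand, and the match lay 24, 61 and 150 bases from the start. None of the 4 genes that fell held the root hair element or the heat shock element in this window. These elements are in only 0.755% and 0.462% of the genes tested, so their absence says little. The W-box core was searched as well and is not in capitals. It was in all 4 genes that fell, against 28.4% of the genes tested. PP2-B13 and PP2-B14, which rose, held 2 matches each. A link between the W-box and either direction was not tested.
EXPA18: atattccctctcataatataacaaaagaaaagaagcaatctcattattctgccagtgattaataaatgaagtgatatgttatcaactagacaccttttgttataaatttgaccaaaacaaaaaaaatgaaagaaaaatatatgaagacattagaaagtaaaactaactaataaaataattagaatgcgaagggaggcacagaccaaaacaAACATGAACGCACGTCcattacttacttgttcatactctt
EXPA7: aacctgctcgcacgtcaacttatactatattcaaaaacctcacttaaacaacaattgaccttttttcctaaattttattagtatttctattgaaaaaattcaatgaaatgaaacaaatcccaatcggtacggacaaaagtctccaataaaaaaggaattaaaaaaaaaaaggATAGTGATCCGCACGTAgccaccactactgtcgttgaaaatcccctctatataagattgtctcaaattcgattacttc
PRP3: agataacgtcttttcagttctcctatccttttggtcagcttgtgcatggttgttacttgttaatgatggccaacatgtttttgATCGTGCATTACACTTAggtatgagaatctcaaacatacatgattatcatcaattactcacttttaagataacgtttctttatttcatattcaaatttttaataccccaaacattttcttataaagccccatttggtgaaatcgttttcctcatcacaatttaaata

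Some wall genes outside the root hair list were lower too. Of 34 genes with extensin in their product name, 10 stood below and 2 above, none was called, and the median was -0.30. EXT6 had 0, 0 and 1.27 CPM at 400 µM, against 3.22, 2.00 and 5.25 CPM at 100 µM (-2.73, SE 0.70, adjusted p = 0.269). AT1G26250 had 48.1, 25.7 and 29.2 CPM at 400 µM, against 49.0, 79.1 and 84.9 CPM at 100 µM (-1.05, SE 0.26), so that its groups were separated by less than 1 CPM. EXT4, an abundant extensin, was flat, at 1856, 1961 and 2171 CPM at 400 µM, against 1994, 1872 and 2450 CPM at 100 µM.

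Of 51 genes annotated as peroxidases of this superfamily, 9 stood below and 3 above, 1 was called, and the median was -0.21. AT4G26010 had 3.66, 2.62 and 4.23 CPM at 400 µM, against 16.1, 8.51 and 5.73 CPM at 100 µM (-1.54, SE 0.41, adjusted p = 0.284). AT3G01190 had 4.18, 6.29 and 8.47 CPM at 400 µM, against 10.0, 10.0 and 18.6 CPM at 100 µM (-0.99, SE 0.32). DOX1, an alpha-dioxygenase that the annotation places in the same superfamily, had 62.7, 60.2 and 71.5 CPM at 400 µM, against 96.9, 111 and 111 CPM at 100 µM (-0.71, SE 0.14, adjusted p = 0.0919). The list of xyloglucan endotransglucosylases leaned the other way, with a median of 0.54. Of 11 measured, 7 had a positive and 4 a negative log2 fold change, 1 stood above and 1 below, and none was called. Only 6 of the 11 averaged 10 CPM or more. XTR6, the member above, had 526, 626 and 529 CPM at 400 µM, against 408, 318 and 409 CPM at 100 µM (0.56, SE 0.17, adjusted p = 0.342).

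Water channels were slightly lower at 400 µM. Of 13 plasma membrane aquaporins, 5 stood below and 1 above, 11 had a 95% interval within 2-fold, and the median was -0.29, or -0.18 without RB 100 µM replicate 1. PIP2B had 171, 205 and 170 CPM at 400 µM, against 264, 274 and 271 CPM at 100 µM (-0.57, SE 0.14, adjusted p = 0.261). PIP1B had 643, 662 and 683 CPM at 400 µM, against 821, 968 and 803 CPM at 100 µM (-0.38, SE 0.12). PIP1;5, PIP2A and PIP1A stood below as well, with log2 fold changes of -0.48, -0.38 and -0.29.

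All 5 tonoplast aquaporins had a negative log2 fold change, 3 stood below, and the median was -0.29, or -0.50 without RB 400 µM replicate 2. GAMMA-TIP had 926, 889 and 904 CPM at 400 µM, against 1067, 1095 and 1073 CPM at 100 µM (-0.25, SE 0.11). TIP2;2 had 66.4, 47.7 and 51.6 CPM at 400 µM, against 72.6, 86.6 and 74.9 CPM at 100 µM (-0.50, SE 0.17), and TIP2;3, which is mainly expressed in roots, had -1.07 (SE 0.42). TIP2 and DELTA-TIP overlapped, at -0.28 (95% interval -0.65 to 0.09) and -0.29 (-0.63 to 0.05).

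Markers of other cells of the seedling were set beside these counts. The mesophyll markers LHCB1.3, RBCS1A and LHCB4.2 overlapped between the doses, with means of 4964, 15360 and 699 CPM at 400 µM, against 4494, 12990 and 672 CPM at 100 µM. Of the root markers, CASP1 of the endodermis had 41.3, 34.0 and 35.6 CPM at 400 µM, against 53.7, 50.6 and 55.8 CPM at 100 µM (-0.53, SE 0.20, adjusted p = 0.488), and PHO1 of the stele had 13.1, 12.0 and 12.3 CPM at 400 µM, against 15.7, 27.5 and 15.7 CPM at 100 µM (-0.64, SE 0.26, adjusted p = 0.531). CASP2 overlapped, and SHV2 (COBL9) of root hairs had 0 reads at 400 µM, against 4 at 100 µM. Of 8 inner and other root markers measured, 3 stood below and 0 above, 5 had a negative and 3 a positive log2 fold change, none was called, and the median was -0.45. Some root markers thus stood lower beside the wall and water channel genes, and their part in those counts was not tested. MYB36 and SKOR, also fixed as markers, were not analysed here.

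Genes of the chloroplast showed little difference. Of 18 light-harvesting proteins, 15 had a 95% interval within 2-fold, 3 stood above and 0 below, and the median was 0.10. LHCB2.3 had 68.5, 93.8 and 70.3 CPM at 400 µM, against 48.6, 42.6 and 41.0 CPM at 100 µM (0.81, SE 0.23, adjusted p = 0.33). LHCB6, far more abundant, had 2156, 2007 and 1833 CPM at 400 µM, against 1582, 1387 and 1802 CPM at 100 µM (0.33, SE 0.12). Of 17 carbon fixation genes, 15 had an interval within 2-fold and the median was -0.04, and HCEF1, a fructose bisphosphatase, stood below at 131, 117 and 115 CPM at 400 µM, against 143, 235 and 154 CPM at 100 µM.

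Of 12 antioxidant enzymes, 11 had an interval within 2-fold and 2 stood above. FSD1, an iron superoxide dismutase, had 688, 779 and 627 CPM at 400 µM, against 565, 375 and 453 CPM at 100 µM (0.59, SE 0.14, adjusted p = 0.249), while its means at 10 and 0 µM, 754 and 642 CPM, were close to that at 400 µM. FSD1 was called by DESeq2 (adjusted p = 0.0349) and, without RB 100 µM replicate 1, by edgeR (adjusted p = 0.0156). It was not called by edgeR when any other single library of the 6 was left out. APX2, an ascorbate peroxidase raised by strong light, had 6.27, 11 and 8.04 CPM at 400 µM, against 4.65, 4.01 and 0.954 CPM at 100 µM (1.35, SE 0.53). SIB1, a plastid and nuclear protein that takes part in singlet oxygen signalling, had 108, 141 and 144 CPM at 400 µM, against 75.1, 66.6 and 81.6 CPM at 100 µM (0.81, SE 0.21, adjusted p = 0.284).

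**Figure D4:**
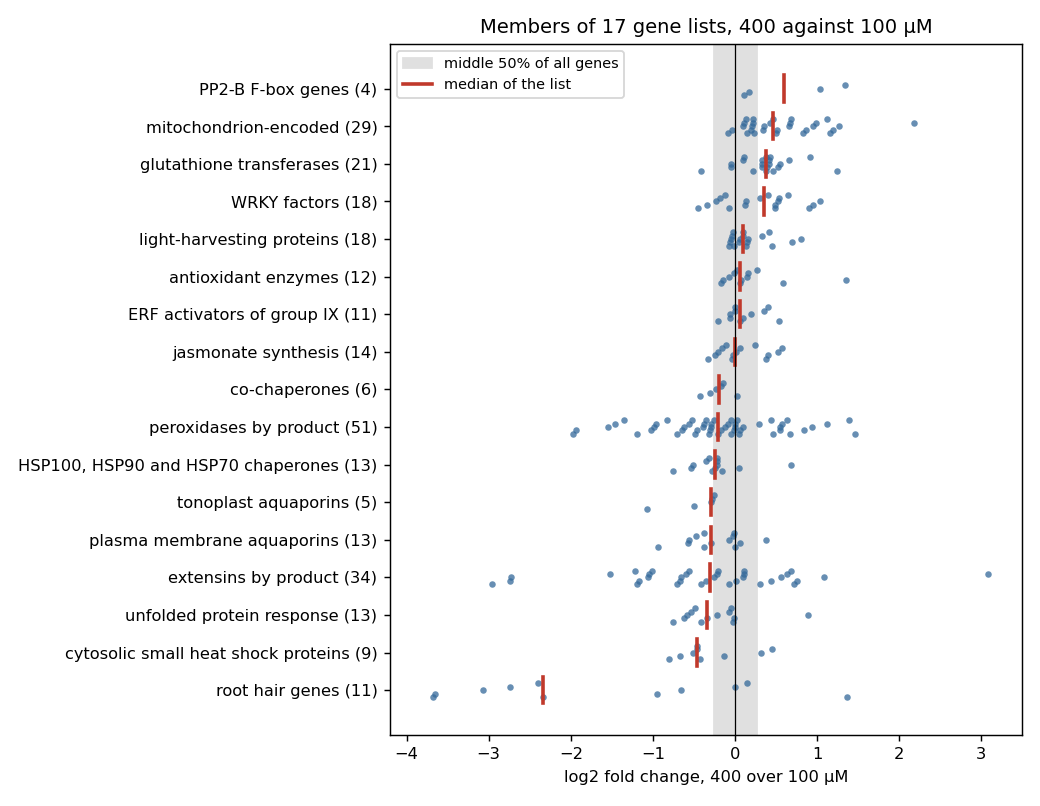
Log2 fold change of 400 over 100 µM for each measured member of 17 gene lists (points, with the number of members in parentheses) and the median of each list (red bar), beside the range from -0.258 to 0.273 that holds the middle 50% of all genes (grey). The PP2-B, mitochondrion-encoded, glutathione transferase and WRKY medians lie right of the grey band, and those of the cytosolic small heat shock proteins, the unfolded protein response, the extensins, the aquaporins and the root hair genes lie left of it.

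Responding genes were also picked at the lowest dose, from 10 against 0 µM, whose libraries the comparison of 400 with 100 µM does not use, although 1 fit gives both the same estimate of spread. The 354 genes called higher at 10 µM had a median log2 fold change of 0.10 between 400 and 100 µM, and 74% of them had an interval within 2-fold. All libraries at 400 µM lay above those at 100 µM for 62 of them (17.5%, against 5.96% of all genes) and below for 34 (9.6%, against 6.39%), and 2 were called higher. Their median was 1.39 for 10 against 0 µM, 1.87 for 100 against 0 µM and 2.00 for 400 against 0 µM, which share the untreated libraries. Abundant members such as SAG21, a stress-induced protein, and TCH3, a calmodulin-like protein, were flat, with intervals of -0.22 to 0.38 and -0.20 to 0.36.

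The heat and folding genes among them had a median of the other sign. Of the 354, 33 belonged to the heat shock, chaperone or unfolded protein lists, with 1 above, 15 below and a median of -0.31. The other 321 had 61 above, 19 below and a median of 0.11. No test of the difference between these groups was run.

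The 143 genes called lower at 10 µM mostly had negative values again. Their median log2 fold change between 400 and 100 µM was -0.41, with 60 genes below (42%, against 6.39% of all genes) and 1 above, LHCB6 (0.699%, against 5.96%), and 2 were called lower. Of them, 39 belonged to the root, aquaporin or wall lists, with 23 below and a median of -0.71, and the other 104 had 37 below and a median of -0.32. AZI1, a lipid transfer protein of systemic immunity, had 1384, 917 and 1399 CPM at 400 µM, against 1616, 1433 and 2440 CPM at 100 µM (-0.57, SE 0.22). Without RB 100 µM replicate 1 the medians were 0.09 for the 354 and -0.46 for the 143.

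**Figure D5:**
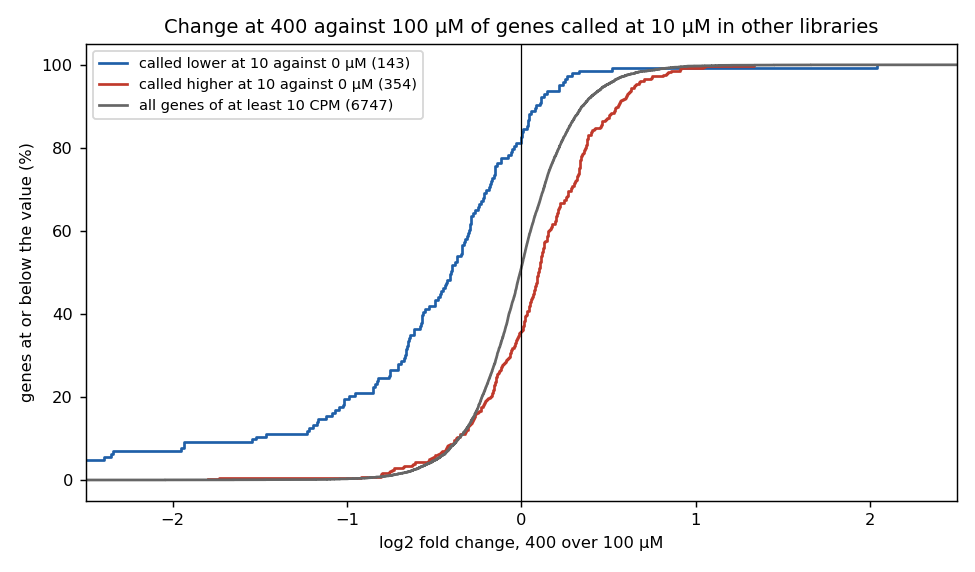
Cumulative share of genes (%) by log2 fold change of 400 over 100 µM, for genes called lower (143, blue) or higher (354, red) at 10 against 0 µM and for all 6747 genes of at least 10 CPM (grey). The blue curve crosses 50% at -0.41 and the red curve at 0.10, on either side of the grey curve.

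The number of called genes was highest among the fits without 1 library when RB 100 µM replicate 1 was left out. Without it 77 genes were higher and 39 lower (0.579% and 0.293%). Of the 77, 68 had this library above the lowest library at 400 µM, and for 67 the other libraries at 100 µM lay below all untreated ones. Their median log2 fold change was 0.54 with the library and 1.57 without it.

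CAM1 and CAM3, calmodulins, are examples of the 77, chosen after their values were seen. CAM1 had 49.1, 91.7 and 75.3 CPM at 400 µM, against 88.7, 16.5 and 17.2 CPM at 100 µM, and CAM3 had 21.4, 76.0 and 34.7 CPM at 400 µM, against 86.2, 5.51 and 4.77 CPM at 100 µM. SNAP33, a protein of membrane fusion, had 34.0, 68.1 and 55.4 CPM at 400 µM, against 63.3, 11 and 9.54 CPM at 100 µM. For all 3 genes, replicates 2 and 3 at 100 µM lay below every library at 400 µM, while replicate 1 lay among these for CAM1 and SNAP33 and above all of them for CAM3. It lay above all libraries at 400 µM for 42 of the 77 genes. The untreated means were 84.0 CPM for CAM1, 56.4 CPM for CAM3 and 35.1 CPM for SNAP33. Which libraries at 100 µM stand for the dose cannot be told apart with 3 libraries.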

How the data were processed

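Whole wild type seedlings at 4 doses of Rose Bengal gave 12 libraries of 3′ mRNA ends (MARS-seq), 3 per dose, with polyadenylated RNA read over 75 cycles. The authors demultiplexed reads with bcl2fastq 2.17.1.14, trimmed them with cutadapt 1.8.3, mapped them with STAR to the Araport 11 annotation and counted them per gene with HTSeq. The deposited counts are whole reads of genes with at least 5 reads in at least 1 library, and no filter on molecular identifiers was applied, so that PCR copies may be among them. The deposited file also holds the authors' normalized signal (counts over DESeq2 size factors) and regularized log2 values, which were not used, and no column was left unmapped. Files were assigned by the labels. The study's own data list gives another treatment for this series, and the labels were followed.

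Counts of all 12 libraries were fitted together with edgeR 4.0.16 (R 4.3.3, limma 3.58.1), with TMM scaling, 1 mean per dose and the quasi-likelihood test, adjusted after Benjamini and Hochberg over 13307 genes. The SE came from the fold change and the F value, and 95% intervals from the t distribution of the fit. Totals ran from 1499791 to 3608636 reads, so that 1 read was worth 0.262 to 0.615 CPM. DESeq2 1.42.0 was run as an alternative, together with other scalings, a stricter read filter, a fit of the 6 libraries alone, a replicate block and fits without single libraries. The fit was also run on counts simulated from its own model, with libraries drawn independently. Such counts hold no scatter shared by many genes of a library, so that run cannot check the calls against such scatter.

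The comparison, the gene lists and the tests were chosen with earlier results of these data known. Named genes were called genes averaging 10 CPM or more whose doses did not overlap, up to 15 in each direction, called members and the 4 members of lowest p of the lists described, and the study's markers, ACT2 and UBQ10. Others were chosen after their values were seen, as were genes lying just outside the threshold. Names, positions and promoters were taken from the RefSeq annotation of TAIR10.1, which matched 13214 of the 13307 identifiers (99.3%).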

Additional observations from a re-analysis of the deposited data

How the results depend on the processing

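Counts of called genes depended on the libraries and the tool, whereas no called gene changed sign under any alternative run. Against 2 genes higher and 4 lower at 400 µM, DESeq2 gave 7 and 22, and leaving out the 3 libraries with the highest positive component scores (replicate 1 at 10 µM, replicate 1 at 100 µM, replicate 2 at 400 µM) gave 89 and 37. Leaving out single libraries gave 0 to 77 higher and 0 to 39 lower, with the highest counts without RB 100 µM replicate 1. For the step contrast, against 0 higher and 8 lower, library totals without scaling factors gave 0 lower, DESeq2 gave 10 and 68, the fit without the 3 libraries gave 331 and 183, and leaving out single libraries gave 0 to 388 and 0 to 190. The cause was not tested. All 6 calls were kept with DESeq2 size factors in edgeR, library totals, the stricter read filter, DESeq2 and the replicate block, and CEP2 was lost in the fit of the 6 libraries alone.

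With a replicate block 4 genes were higher and 6 lower. No sign that the numbers pair the libraries was seen. Deviations of same-numbered libraries at 400 and 100 µM had correlations of -0.363, -0.227 and 0.0722, against -0.283 to 0.405 for unlike numbers. These values cannot show whether same-numbered libraries were handled together. A bound of 1.5-fold in place of 2-fold held 2936 in place of 5872 intervals.

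Among list medians, that of the superoxide markers ran from -0.31 to 0.49 over fits without single libraries and was 0.70 without the 3. Those fits gave 0.00 to 0.36 for xenobiotic detoxification, where the lowest was -0.004048, -0.17 to 0.11 for jasmonate catabolism, -2.51 to -1.09 for root hair genes and -0.50 to -0.22 for tonoplast aquaporins. Without the 3 libraries the median was -0.15 for plasma membrane and -0.50 for tonoplast aquaporins. Intervals of genes under 10 CPM had a median half-width of 1.4, wider than 2-fold.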

Other observations

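The plastid gene ATCG00260 had 1, 4 and 1877 reads in the libraries at 400 µM, so that nearly all of its reads there came from replicate 3. It was called without RB 400 µM replicate 2 and with a replicate block, and its libraries at 400 and 100 µM overlapped.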
